A study of Mus musculus with 17 samples.

Results

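The BCL2 family genes described here are 10 of the 23282 genes in the deposited expression table of sorted mouse spermatogenic cells. They were taken by gene symbol and comprise the effectors *Bax*, *Bak1* and *Bok*, the pro-survival genes *Bcl2*, *Bcl2l1*, *Bcl2l2* and *Mcl1*, and the BH3-only genes *Bcl2l11*, *Bid* and *Bad*. RNA was measured by Smart-seq2 in cells sorted as SPG (spermatogonia), PreL (pre-leptotene) and LZ (leptotene and zygotene) from wild type (WT) and *Nat10*-SKO mice, all labelled as strain C57BL/6 (C57BL/6J in the study's methods). In *Nat10*-SKO mice (*Nat10* fl/-;*Stra8-GFPCre*), a Cre driven from the *Stra8* locus of germ cells excises floxed exons of *Nat10*, the gene of the RNA acetyltransferase that writes N4-acetylcytidine. There were 3 libraries for each genotype and stage, except WT LZ with 2, which makes 17 in all. The WT labels name no Cre or floxed allele, and the age of the sorted mice is not given in the sources used here.

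The BCL2 family decides whether the outer mitochondrial membrane is opened in apoptosis. BAX, BAK1 and the related BOK form the pores, BCL2, BCL-XL (from *Bcl2l1*), BCL-W (from *Bcl2l2*) and MCL1 hold them in check, and BH3-only proteins such as BIM (from *Bcl2l11*), BID and BAD tip the balance by binding the pro-survival proteins or by activating the pore formers. Once the membrane is open, cytochrome c reaches APAF1 and starts the caspases. In the testis this system removes surplus and faulty germ cells, and male mice without *Bax* or *Bcl2l2* are infertile.

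The members that passed a test between the genotypes were *Bcl2l11* in SPG, and *Bcl2l1*, *Bad*, *Mcl1* and *Bcl2l2* in LZ. Of these, *Bcl2l1* and *Bad* were called lower in *Nat10*-SKO LZ. After removal of library size, neither passed a test between the genotypes in SPG or PreL. On that scale both were high in the 2 WT LZ libraries, and neither was high in the 3 *Nat10*-SKO LZ libraries. *Mcl1* showed the opposite order there, with its lowest levels in WT LZ. These orders over the stages depend on the scale. In the deposited values, *Mcl1* was higher in WT LZ (4755 and 5316) than in WT PreL (2104 to 3004). *Bcl2l1* in those values was higher in *Nat10*-SKO LZ (840.7 to 998.4) than in *Nat10*-SKO PreL (434.7 to 673.5). *Bcl2l1*, *Bad* and *Mcl1* are the 3 members for which the genotype difference changed between PreL and LZ. The 250 bases before their transcript starts are therefore shown, 5' to 3', from RefSeq (GRCm38.p6). Capitals mark matches to GGGCGG, the GC box bound by SP and KLF factors, on either strand (CCGCCC on the other strand).

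Bcl2l1 (chr2:152831729-152831978, minus strand): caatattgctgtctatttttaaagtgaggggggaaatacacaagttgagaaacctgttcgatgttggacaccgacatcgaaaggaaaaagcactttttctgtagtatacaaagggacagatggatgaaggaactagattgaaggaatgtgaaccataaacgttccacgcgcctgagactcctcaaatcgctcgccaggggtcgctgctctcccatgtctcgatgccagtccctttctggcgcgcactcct
Bad (chr19:6941611-6941860, plus strand): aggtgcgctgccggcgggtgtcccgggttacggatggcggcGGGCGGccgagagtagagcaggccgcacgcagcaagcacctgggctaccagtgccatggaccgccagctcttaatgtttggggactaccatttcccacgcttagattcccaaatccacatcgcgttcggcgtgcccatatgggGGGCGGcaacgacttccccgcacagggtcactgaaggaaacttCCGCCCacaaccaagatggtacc
Mcl1 (chr3:95658471-95658720, plus strand): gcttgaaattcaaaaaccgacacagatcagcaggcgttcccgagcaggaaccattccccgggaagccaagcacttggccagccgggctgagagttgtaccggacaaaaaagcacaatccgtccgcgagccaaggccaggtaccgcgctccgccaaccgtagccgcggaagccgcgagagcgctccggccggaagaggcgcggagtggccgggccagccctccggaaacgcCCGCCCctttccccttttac

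The *Bcl2l1* window was 47.6% GC and held none of the 5 motifs searched on both strands, which were the E-box CACGTG, the cAMP response element TGACGTCA, the GC box GGGCGG, the box named for its letters CCAAT, and the core of MYB sites, AACGG. RefSeq lists 3 start windows for *Bcl2l1*, and the other 2 held none either. The printed *Bad* window was 62.8% GC and held 3 matches to GGGCGG, and the *Mcl1* window was 64.4% GC and held 1. RefSeq lists another start window for *Bad*, which was 64.8% GC and held 0 matches to GGGCGG and 1 to CCAAT. Of 32851 RefSeq promoter windows of this length, 32.7% held GGGCGG, 33.8% CCAAT, 14.5% AACGG, 6.02% CACGTG and 1.55% TGACGTCA. So *Bcl2l1* and *Bad*, both highest in the WT LZ libraries, could share no match, because the *Bcl2l1* windows held none of the 5 motifs.

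Values below are rescaled values unless stated, that is, the deposited values after removal of library size over all 17 libraries. The libraries held between 5812380 reads (a *Nat10*-SKO LZ library) and 13820953 reads (a WT LZ library). *Nat10* itself, counted over the whole gene, did not overlap between the genotypes in any stage, ranging from 542.1 to 823.0 in WT and from 184.1 to 469.7 in *Nat10*-SKO, and its log2 fold change was -0.87 in SPG, -1.29 in PreL and -1.47 in LZ (limma, adjusted p = 0.0326, 0.00591 and 0.00469). Markers of other cells moved with genotype and stage. The summed level of 12 late spermatocyte markers was 79669 and 183208 in the WT LZ libraries, 11676 to 29651 in WT PreL and 5148 to 6236 in *Nat10*-SKO LZ, and 12 spermatid markers summed to 14454 to 23426 in WT PreL and LZ against 263.7 to 343.1 in the same *Nat10*-SKO stages. Leydig cell markers (8 genes) summed to 155.4 to 1557 in WT and 1377 to 12098 in *Nat10*-SKO, and macrophage markers (9 listed) to 188.4 to 354.9 in WT SPG and 2065 to 3879 in *Nat10*-SKO SPG. Early meiotic markers (10 listed) were present in all libraries and lowest in WT SPG (70354 to 71928). The undifferentiated spermatogonia list (10 genes) summed to 1405 to 1845 in WT SPG and 1218 to 1450 in *Nat10*-SKO SPG. It was higher in LZ, at 2036 to 3474 in WT and 2662 to 3317 in *Nat10*-SKO. The differentiating spermatogonia list (7 genes) was lower in LZ than in SPG. It summed to 27760 to 29433 in WT SPG and 20381 to 21868 in WT LZ. In *Nat10*-SKO it was 35534 to 36854 in SPG and 24903 to 29306 in LZ. Of the undifferentiated list, *Nanos2* and *Pax7* were at 0 in WT SPG, *Nanos2* also in WT PreL and *Pax7* also in *Nat10*-SKO LZ. In such bulk samples, fewer cells of a type and less RNA per cell cannot be told apart, and since the labels do not say that libraries of a group came from separate animals, the p-values measure only the spread between these libraries.

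Per base of exon, *Bax* and *Mcl1* made up most of the family in every group. Among the 10 genes, *Bax* took a mean of 37.8% to 47.1% of the transcripts per length over the 6 groups, *Mcl1* 21.8% to 33.9% and *Bid* 8.51% to 17.1%. *Bcl2* and *Bak1* were scarce, with at most 0.380% and 0.478%. *Bcl2l1* took 2.0% to 3.70% in 5 of the groups and 13.8% in WT LZ, and *Bad* took 1.53% to 3.36% in the same 5 groups and 11.4% in WT LZ. By role, the effectors together took 41.8% ± 12.7 (SD, n = 2) in WT LZ and 45.3% ± 1.95 (SD, n = 3) in *Nat10*-SKO LZ, the pro-survival genes 37.5% ± 10.4 and 39.4% ± 1.48, and the BH3-only genes 20.7% ± 2.36 and 15.3% ± 0.703. The effector and pro-survival shares of the genotypes overlapped between libraries, whereas the BH3-only shares did not (19% and 22.4% against 14.5% to 15.8%). Of the BH3-only genes only *Bad* had a lower mean share in *Nat10*-SKO LZ (2.83% against 11.4% in WT LZ). The other BH3-only genes had higher mean shares there, *Bid* 11% against 8.51% and *Bcl2l11* 1.5% against 0.796%.

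The first question of the design is how loss of *Nat10* altered the cells in each stage, and for the family this was most visible in LZ. Of the 10 members 9 were tested in LZ, where *Bcl2* fell under the minimum of 10 reads on average. *Bcl2l1* and *Bad* fell past the threshold for a called gene (adjusted p under 0.05 with a change of more than 1 on the log2 scale in either direction), and *Mcl1* and *Bcl2l2* rose at adjusted p under 0.05 without reaching that fold. The share of all 13724 tested genes called lower in LZ was 25.8%, and 13.4% were called higher, so 2 of 9 called lower is near the background of this stage. At adjusted p alone, 19.8% of all tested genes were higher, against 2 of 9 members. The median log2 fold change over the 9 members was 0.49, beside -0.13 over all tested genes.

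**Figure D1:**
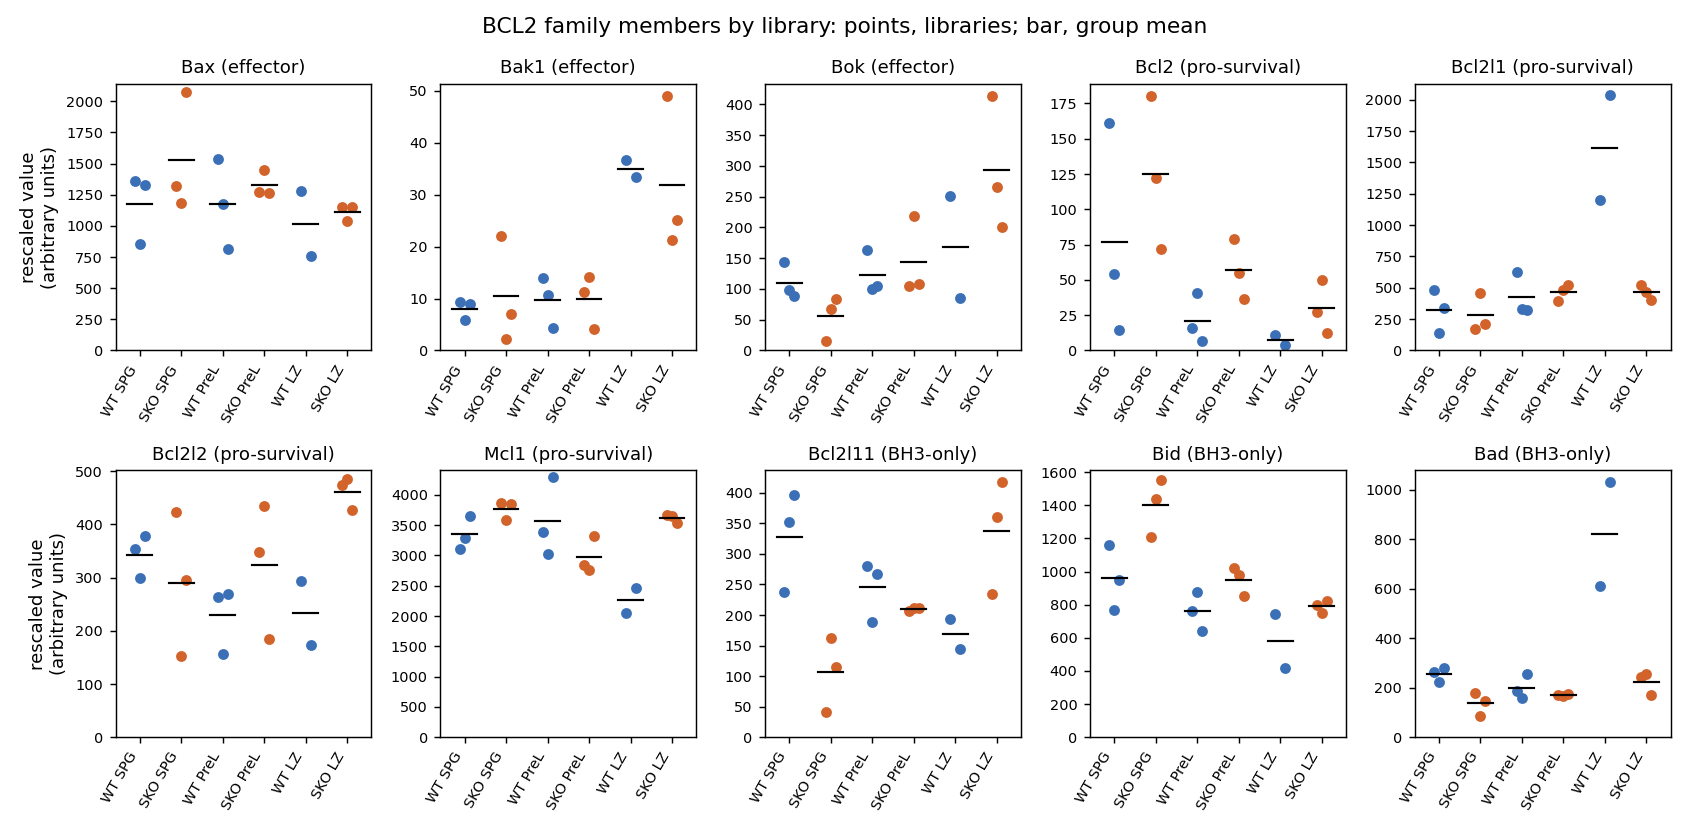
Each panel is 1 gene, with the rescaled value (arbitrary units, linear axis from 0) of each library as a point and the group mean as a bar, WT in blue and *Nat10*-SKO in orange. The 2 WT LZ points of *Bcl2l1* (1197 and 2034) and *Bad* (610.4 and 1031) stand above all other libraries.

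*Bcl2l1* encodes BCL-XL, which restrains BAX and BAK1. Its values were 1197 and 2034 in WT LZ and 522.8, 467.3 and 405.4 in *Nat10*-SKO LZ, from 851 and 1099 reads against 96, 132 and 97. Both WT libraries lay above all 3 *Nat10*-SKO libraries. The log2 fold change was -1.76 ± 0.28 (SE), 3.38-fold lower in *Nat10*-SKO (limma, adjusted p = 0.00154), and it stayed called when any 1 library was left out, at -1.38 (adjusted p = 0.0209) without WT LZ replicate 3 and -2.19 without WT LZ replicate 2.

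*Bad* encodes a BH3-only protein that binds BCL-XL and BCL2 and is switched off by phosphorylation. Its values were 610.4 and 1031 in WT LZ and 245.1, 254.9 and 171.3 in *Nat10*-SKO LZ, again without overlap. The log2 fold change was -1.84 ± 0.33 (SE), 3.58-fold lower (limma, adjusted p = 0.00303), and -1.47 (adjusted p = 0.0489) without WT LZ replicate 3. *Bad* shares 524 exon bases with *Gpr137* on the opposite strand, and the library kit does not mark strand. *Gpr137* was also lower in *Nat10*-SKO LZ, by -3.26 ± 0.43 on the log2 scale (adjusted p = 0.000643), with 311 and 469 reads in WT and 14 in each of the 3 *Nat10*-SKO libraries, so reads of these 2 genes cannot be told apart in the shared bases. *Bcl2l1* shares no exon base with another gene in GENCODE M21.

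*Mcl1*, a short-lived pro-survival protein, was the most read member in every library. Its values were 2058 and 2460 in WT LZ and 3676, 3657 and 3544 in *Nat10*-SKO LZ, with no overlap and little spread in *Nat10*-SKO. The log2 fold change was 0.67 ± 0.16 (SE), 1.59-fold higher (limma, adjusted p = 0.00918). *Bcl2l2*, the gene of BCL-W, was at 294.0 and 174.0 in WT LZ and 473.8, 485.0 and 426.3 in *Nat10*-SKO LZ, again with all *Nat10*-SKO libraries above. Its log2 fold change was 0.996 ± 0.298 (SE), 1.99-fold higher (limma, adjusted p = 0.0258), just under the fold threshold. It no longer passed without WT LZ replicate 3 or any of the 3 *Nat10*-SKO LZ replicates. The adjusted p was 0.0900 in limma without *Nat10*-SKO LZ replicate 2. *Bcl2l2* also did not pass on the ERCC-calibrated values without rescaling. It shares 594 exon bases with *Gm20521* on the same strand, a symbol that the deposited table does not list.

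The other members tested in LZ did not pass. *Bcl2l11*, the gene of BIM, was at 194.1 and 144.4 in WT LZ and 234.2, 361.1 and 417.9 in *Nat10*-SKO LZ, without overlap, at a log2 fold change of 0.94 ± 0.35 (SE) and adjusted p = 0.0579 in limma. edgeR and DESeq2 on the recovered reads gave it 1.03 and 1.025 with adjusted p = 0.0463 and 0.0277. *Bid* was 0.49 (adjusted p = 0.163) with no overlap between the libraries, *Bok* 0.90 (0.182), *Bax* 0.16 (0.599) and *Bak1* -0.21 (0.745), the last 3 with overlap. *Bcl2* was counted at 8 and 2 reads in WT LZ and 5, 14 and 3 in *Nat10*-SKO LZ, too few for a test. Groups that did not overlap were found for 6 of the 9 tested members, beside 70.1% of all tested genes.

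**Figure D2:**
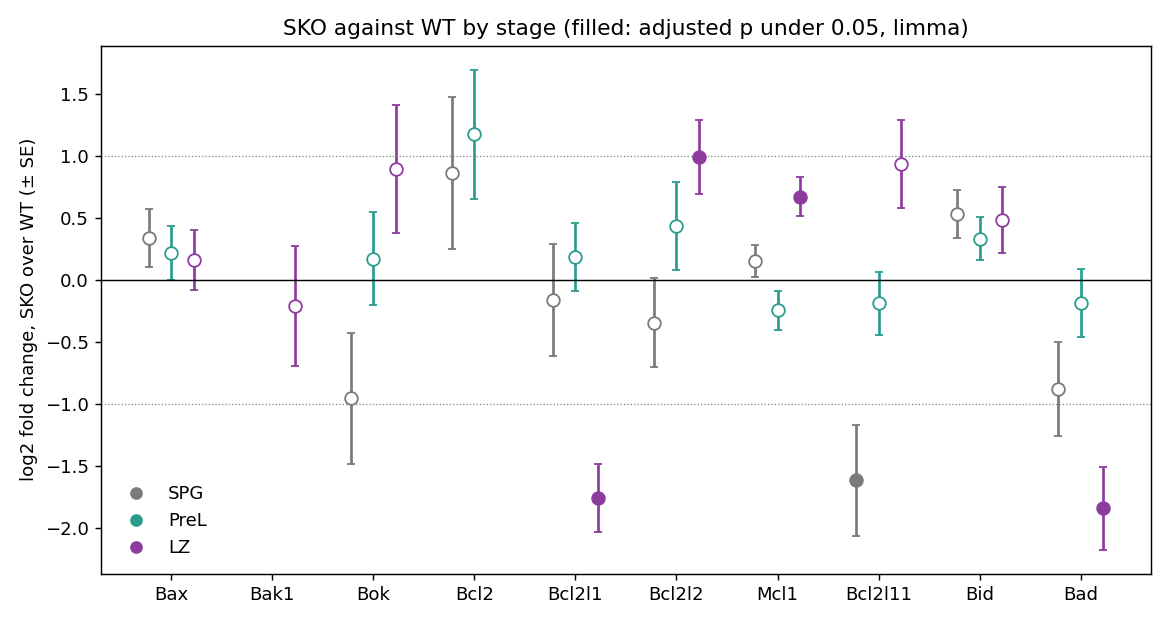
The log2 fold change of *Nat10*-SKO over WT (y axis, with its SE) is drawn for each tested member in SPG, PreL and LZ, filled where the adjusted p was under 0.05 and with dotted lines at -1 and 1. Filled points below 0 are *Bcl2l11* in SPG (-1.61) and *Bcl2l1* (-1.76) and *Bad* (-1.84) in LZ, and those above 0 are *Mcl1* (0.67) and *Bcl2l2* (0.996) in LZ.

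In SPG, *Bcl2l11* was the member that changed. BIM is the BH3-only protein that several survival signals keep low. The values of *Bcl2l11* were 237.6, 351.6 and 395.7 in WT SPG and 42.1, 162.3 and 115.2 in *Nat10*-SKO SPG, with every *Nat10*-SKO library below every WT library. Its log2 fold change was -1.61 ± 0.45 (SE), 3.06-fold lower (limma, adjusted p = 0.034), and it was 1 of 9 tested members called lower, beside 2.06% of the 12846 tested genes. The call rests on few libraries, because it was lost without any 1 of the 3 WT replicates and without *Nat10*-SKO replicates 1 or 4 (adjusted p = 0.0543 to 0.150), and with edgeR.

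The remaining SPG members did not pass. *Bid* was higher in every *Nat10*-SKO library (1206 to 1554 against 769.3 to 1158) at a log2 fold change of 0.53 and adjusted p = 0.0994, and *Bad* was lower in every one (86.7 to 180.2 against 221.5 to 281.1) at -0.88 and adjusted p = 0.158. *Bok* was -0.95 (adjusted p = 0.280), *Bcl2* 0.86 (0.410), *Bcl2l2* -0.34 (0.598), *Bax* 0.34 (0.398), *Bcl2l1* -0.16 (0.867) and *Mcl1* 0.16 (0.477). *Bcl2* varied from 14.3 to 161.0 among the WT SPG libraries alone. Groups did not overlap for 4 of the 9 tested members, beside 29.6% of tested genes. Markers of other cells moved with these values in SPG. Macrophage (7 of 9 tested), Leydig cell (6 of 8) and peritubular myoid cell markers (3 of 5) were called higher in *Nat10*-SKO. Of all 12846 tested genes, 508 were called higher and 2.06% lower. The myoid markers summed to 85.48 to 261.4 in WT and 1025 to 1872 in *Nat10*-SKO. Spermatid markers were called lower (9 of 12), with sums of 2724 to 6976 in WT and 102.3 to 258.4 in *Nat10*-SKO. Their part in the values of *Bcl2l11*, *Bid* and *Bad* was not tested.

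In PreL, limma called 0 of the 9 tested members, beside 11.1% of 13132 tested genes in either direction, and edgeR and DESeq2 also called 0. At an unadjusted p under 0.05 in limma there was 1 member, *Bcl2*, beside 2247 lower and 2180 higher of the 13132 tested genes. *Bcl2* was at 79.1, 55.1 and 36.6 in *Nat10*-SKO and 15.9, 40.6 and 6.6 in WT, with overlap. Its log2 fold change was 1.18 ± 0.52 (SE, adjusted p = 0.147). *Bcl2l1* was at 323.5 to 623.2 in WT PreL and 393.7 to 522.0 in *Nat10*-SKO PreL, and *Bad* at 158.2 to 253.5 and 167.0 to 172.7. All 9 tested members overlapped between the genotypes in PreL, where 37.4% of tested genes did not.

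The second question is how the members moved from stage to stage within a genotype. From PreL to LZ in WT, *Bcl2l1* rose by 1.78 ± 0.36 (SE, log2 scale, 3.42-fold, limma, adjusted p = 0.00695) and *Bad* rose by 1.83 ± 0.38 (3.55-fold, adjusted p = 0.00716), while *Mcl1* fell by 0.79 on the log2 scale (SE 0.22, adjusted p = 0.0234). The WT PreL values were 623.2, 333.5 and 323.5 for *Bcl2l1*, 187.1, 158.2 and 253.5 for *Bad* and 3383, 3031 and 4293 for *Mcl1*. Compared with the LZ values given above, none of the 3 genes overlapped between the stages. The 2 members called higher of 9 tested stand beside 18.8% of 13759 tested genes called higher, and the 1 member that fell at adjusted p alone beside 14.2%. In either direction 26.6% were called. Groups did not overlap for 5 of the 9, beside 62.9% of tested genes.

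These calls depended on 1 of the 2 WT LZ libraries. Without WT LZ replicate 3, *Bcl2l1* was 1.40 (adjusted p = 0.0809) and *Bad* 1.46 (adjusted p = 0.0729), and without replicate 2 they were 2.13 and 2.17 (adjusted p = 0.0284 and 0.0242). *Mcl1*, which passed at adjusted p alone, no longer did so without WT PreL replicate 1 or 4 or either WT LZ library (adjusted p = 0.0565 to 0.103), at log2 fold changes of -0.68 to -0.90. On the ERCC-calibrated values without rescaling, where the median of all tested genes shifts by 1.86 from PreL to LZ in WT, *Mcl1* was 1.04, so its fall holds only relative to the other genes, which on that scale rose more.

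In *Nat10*-SKO, limma called 0 of the 9 tested members from PreL to LZ, beside 17.5% of 12477 tested genes in either direction. *Bcl2l1* was -0.03 ± 0.19 (SE, adjusted p = 0.904), *Bad* 0.33 ± 0.24 (adjusted p = 0.313) and *Mcl1* 0.26 ± 0.13 (adjusted p = 0.140). *Bok*, which encodes a BAX-like protein, was 0.98 ± 0.36 (adjusted p = 0.0572), and DESeq2 called it (1.02, adjusted p = 0.0383) while edgeR called 0 members. At an unadjusted p under 0.05 in limma there were 3 members, *Bax*, *Bok* and *Bcl2l11*, beside 3084 lower and 2813 higher of the 12477 tested genes.

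From SPG to PreL, limma, edgeR and DESeq2 each called 0 of 9 tested members in either genotype. The background was 3.75% of 12657 tested genes in WT and 2.59% of 12882 in *Nat10*-SKO. At an unadjusted p under 0.05 in limma there were 0 members in WT and 5 in *Nat10*-SKO. Among all tested genes, 1528 lower and 1798 higher reached it in WT, and 1409 lower and 1590 higher in *Nat10*-SKO. Of the 5 members, *Bid* had the lowest adjusted p (0.0834), at 1206, 1441 and 1554 in SPG and 1023, 978.7 and 853.1 in PreL. *Bcl2l11* was at 42.1 to 162.3 in *Nat10*-SKO SPG and 207.2 to 211.4 in PreL (1.07, adjusted p = 0.182), and in WT it was 237.6 to 395.7 and 188.1 to 280.7 (-0.42, adjusted p = 0.404).

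The difference between the genotypes was compared between stages by an interaction in 1 fit of all 17 libraries. From PreL to LZ it moved by -1.91 ± 0.59 (SE, log2 scale) for *Bcl2l1* (limma, adjusted p = 0.0151), by -1.61 ± 0.47 for *Bad* (adjusted p = 0.0115) and by 0.94 ± 0.20 for *Mcl1* (adjusted p = 0.00124). Among 13530 tested genes, 23.1% passed in the lower and 15.1% in the higher direction. Without WT LZ replicate 3 the *Bcl2l1* and *Bad* interactions were -1.55 and -1.25 (adjusted p = 0.0951 and 0.0883), and without rescaling the *Mcl1* interaction was 0.07 (adjusted p = 0.839). From SPG to PreL 0 members passed in limma, edgeR and DESeq2, beside 0.362% of tested genes in limma. At an unadjusted p under 0.05 in limma there were 2 members, beside 1137 lower and 917 higher of the 13530 tested genes. They were *Bcl2l11* (1.48 ± 0.54, adjusted p = 0.214) and *Mcl1* (-0.42 ± 0.19, adjusted p = 0.294).

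Ratios of 2 members within a library do not depend on the scaling between libraries. Each pair here holds *Bcl2l1* or *Bad*, so the ratios restate the differences given above and are no separate evidence. There were 1.72 and 1.21 *Mcl1* reads per *Bcl2l1* read in WT LZ, 7.03, 7.83 and 8.74 in *Nat10*-SKO LZ, and 5.43 to 23.2 in the SPG and PreL libraries. *Bad* had 824 and 2465 reads per 1000 *Bid* reads in WT LZ, 306, 340 and 208 in *Nat10*-SKO LZ, and 60.2 to 396 elsewhere. Per exon length, *Bax* was 4.79 and 1.66 times as abundant as *Bcl2l1* in WT LZ and 9.90 to 12.7 times in *Nat10*-SKO LZ. These ratios are given without a test, and in all of them *Nat10*-SKO LZ lay within or near the range of the earlier stages.

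The late spermatocyte markers moved with the *Bcl2l1* and *Bad* results. Of the 12 markers, 11 were called higher in WT LZ than in WT PreL and 11 lower in *Nat10*-SKO LZ than in WT LZ. WT LZ replicate 3 had the larger marker sum (183208 against 79669) and also the higher *Bcl2l1* (2034 against 1197) and *Bad* (1031 against 610.4). WT PreL replicate 2, with a marker sum of 29651 against 11676 and 14295 in the other 2, had *Bcl2l1* at 333.5 and *Bad* at 158.2, within and below the range of those 2 libraries. Sertoli cell markers ran the other way in WT LZ, with 6876 in replicate 3 and 25923 in replicate 2. In LZ, Leydig cell (6 of 8 tested), macrophage (4 of 5) and Sertoli cell markers (1 of 8) were called higher in *Nat10*-SKO. Of all tested genes, 13.4% were called higher there. The part of all these cells in the results, for genes lower or higher in *Nat10*-SKO LZ, was not tested.

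**Figure D3:**
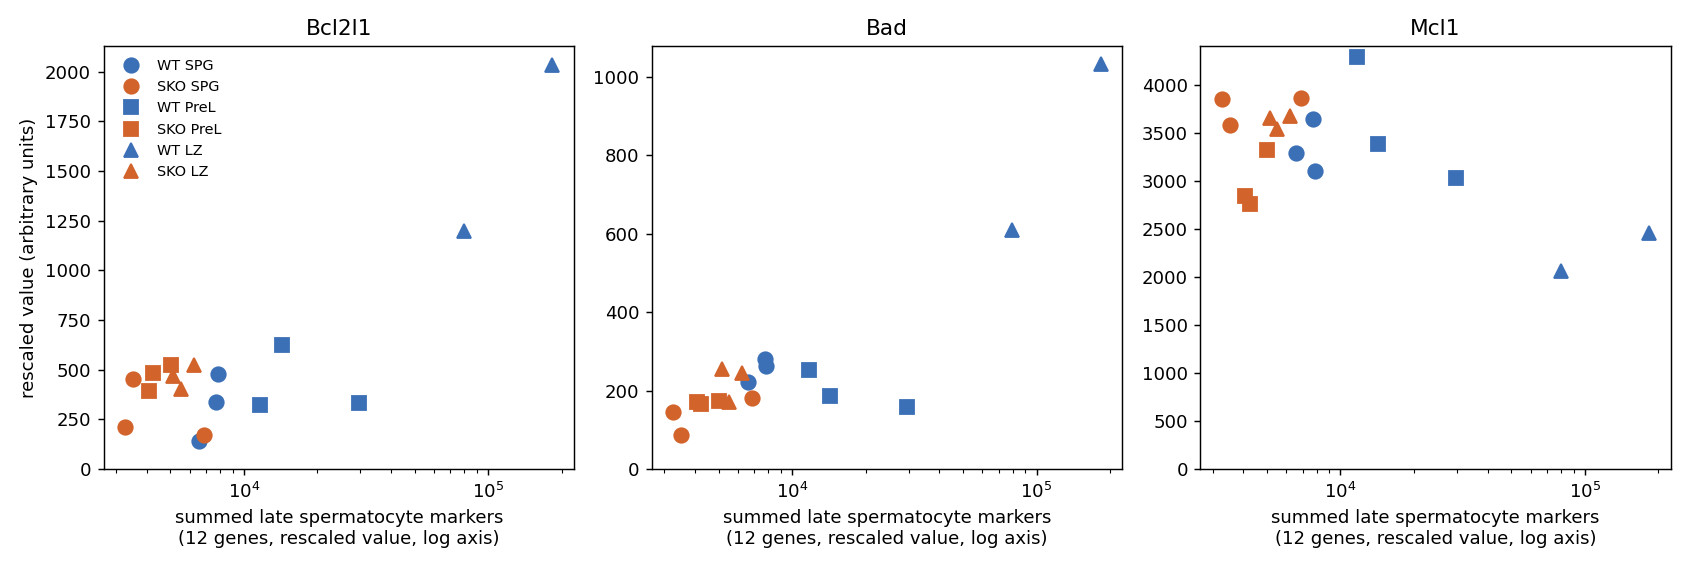
Each point is 1 library, with the summed rescaled value of 12 late spermatocyte markers on the x axis (log scale) and the rescaled value of the gene on the y axis (linear, from 0), WT in blue and *Nat10*-SKO in orange. The 2 WT LZ libraries lie alone at marker sums of 79669 and 183208, where *Bcl2l1* and *Bad* are highest and *Mcl1* lowest.

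When the 6 groups were put in order of level, most neighbouring groups of the remaining members overlapped. *Bax* ran from a mean of 1528 in *Nat10*-SKO SPG to 1017 in WT LZ, and all neighbouring groups overlapped. *Bid* was highest in *Nat10*-SKO SPG (1400 ± 178, SD, n = 3), above WT SPG (959.5 ± 195) without overlap, and *Nat10*-SKO PreL lay above *Nat10*-SKO LZ (951.6 and 791.5), also without overlap. It was lowest in WT LZ (579.8 ± 228, n = 2). *Bok* ran from 293.3 ± 109 in *Nat10*-SKO LZ to 55.5 ± 35.3 in *Nat10*-SKO SPG, the last below its neighbour WT SPG without overlap. *Bcl2* ran from 124.7 ± 54.4 in *Nat10*-SKO SPG to 7.48 ± 5.34 in WT LZ, with all neighbours overlapping. *Bak1* was highest in LZ of both genotypes (34.9 and 31.8) and at 8.05 to 10.4 elsewhere, from 1 to 26 reads a library. It shares exon bases on the opposite strand with *Ggnbp1*, which had 3763 and 7890 reads in the WT LZ libraries and 3 or 4 in *Nat10*-SKO LZ. *Bid* shares 628 exon bases with *Bcl2l13* on the opposite strand, which had 149 to 591 reads a library. *Bax* shares 192 with *Gm45808* on the same strand and *Bcl2* 558 with *D630008O14Rik* on the opposite strand. The deposited table lists neither of these last symbols. The levels, shares and ratios of *Bid*, *Bax* and *Bcl2* carry this limit.

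Among the 8659 genes averaging 100 reads or more, those whose log2 levels were most alike to a member over the 17 libraries are given as a description, since the libraries share groups and the 2 WT LZ libraries weigh heavily. For *Bcl2l1* they were *Abcf2* (Pearson r = 0.936), *Thop1* (0.923) and *Angel1* (0.907), and for *Bad* *BC024659* (0.960), *Tom1* (0.937) and *4930558J18Rik* (0.933). For *Mcl1* they were *Rchy1* (0.929), *Pcgf5* (0.926) and *Mysm1* (0.909). For *Bcl2l11* they were *Tsn* (0.903), *Klhl21* (0.887) and *Rassf3* (0.861), and for *Bid* *Nsun6* (0.926), *Ctsb* (0.905) and *Cd81* (0.895). *Bcl2l2* was closest to *Idh1* (0.905), *Sh3bp5* (0.862) and *Zfp532* (0.823), and *Bcl2* to *Psmb8* (0.874) and *Papd4* (0.848). Among the effectors, *Bok* was closest to *Mdn1* (0.929), *Tsc22d4* (0.898) and *Tmem29* (0.884), *Bak1* to *Strada* (0.912), *Rnf26* (0.880) and *Irak1bp1* (0.863), and *Bax* to *Nagpa* (0.831), *Taldo1* (0.775) and *Tmem41a* (0.770).

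Genes around the family were taken from 5 lists. In LZ the death receptor genes had 3 of 7 tested called higher in *Nat10*-SKO and 0 lower, with a median of 1.01. *Cflar*, the gene of the caspase-8 inhibitor c-FLIP, rose by 3.84 ± 0.26 (SE, log2 scale, limma, adjusted p = 5.42e-05), the death receptor gene *Tnfrsf10b* by 3.34 ± 0.22 (5.18e-05) and its adaptor *Fadd* by 2.15 ± 0.31 (0.00103). From PreL to LZ these 3 genes rose in *Nat10*-SKO by 2.27, 2.54 and 2.105 on the log2 scale, whereas in WT *Cflar* and *Tnfrsf10b* fell by 1.82 and 1.43 and *Fadd* was -0.83 (adjusted p = 0.0964). The other 4 tested genes of the list did not pass in LZ. In PreL *Tnfrsf10b* fell by 0.51 on the log2 scale in *Nat10*-SKO (adjusted p = 0.0337). In SPG 0 of 8 tested passed.

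Among inhibitor of apoptosis genes, 2 of 7 tested were called higher in LZ, *Naip2* (3.60 ± 0.31, adjusted p = 9.41e-05) and *Naip5* (3.50 ± 0.28, adjusted p = 7.4e-05). These are paralogues, and only reads with a unique position were counted, so reads in stretches identical between them would be left out. *Xiap*, which blocks caspases directly, rose by 0.85 ± 0.19 (adjusted p = 0.00688) under the fold threshold. The list of the apoptosome, caspases and released factors went both ways, with 3 lower and 2 higher of 12 tested. *Diablo*, whose product relieves XIAP, was -2.29 ± 0.19 (adjusted p = 8.49e-05). Of the cytochrome c genes, the testis form *Cyct* was -1.50 ± 0.23 (adjusted p = 0.00136) and the somatic form *Cycs* 1.29 ± 0.20 (adjusted p = 0.00146).

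The membrane partners and turnover genes had 4 called lower and 0 higher of 10 tested in LZ, with a median of -0.50. The outer membrane channels *Vdac2* (-1.84 ± 0.23, adjusted p = 0.000544), a partner of BAX and BAK1, and *Vdac3* (-1.30 ± 0.20, 0.00147) fell, as did *Mtch2* (-1.47 ± 0.22, 0.00119), the BID receptor of mitochondria. Of the other BCL2 family and BH3 genes, 2 were called lower and 1 higher of 8 tested, among them *Bcl2l12* (-2.10 ± 0.35, adjusted p = 0.00212). In PreL, 1 of 8 tested genes of this list was called lower and 1 higher in *Nat10*-SKO. Of all tested genes, 11.1% were called there in either direction. The higher one was *Pmaip1*, the gene of the MCL1-binding BH3-only protein NOXA (1.29 ± 0.31, limma, adjusted p = 0.0222). The lists were chosen with earlier results of these data known, and their counts are to be read beside the 25.8% and 13.4% of all genes called lower and higher in LZ.

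**Figure D4:**
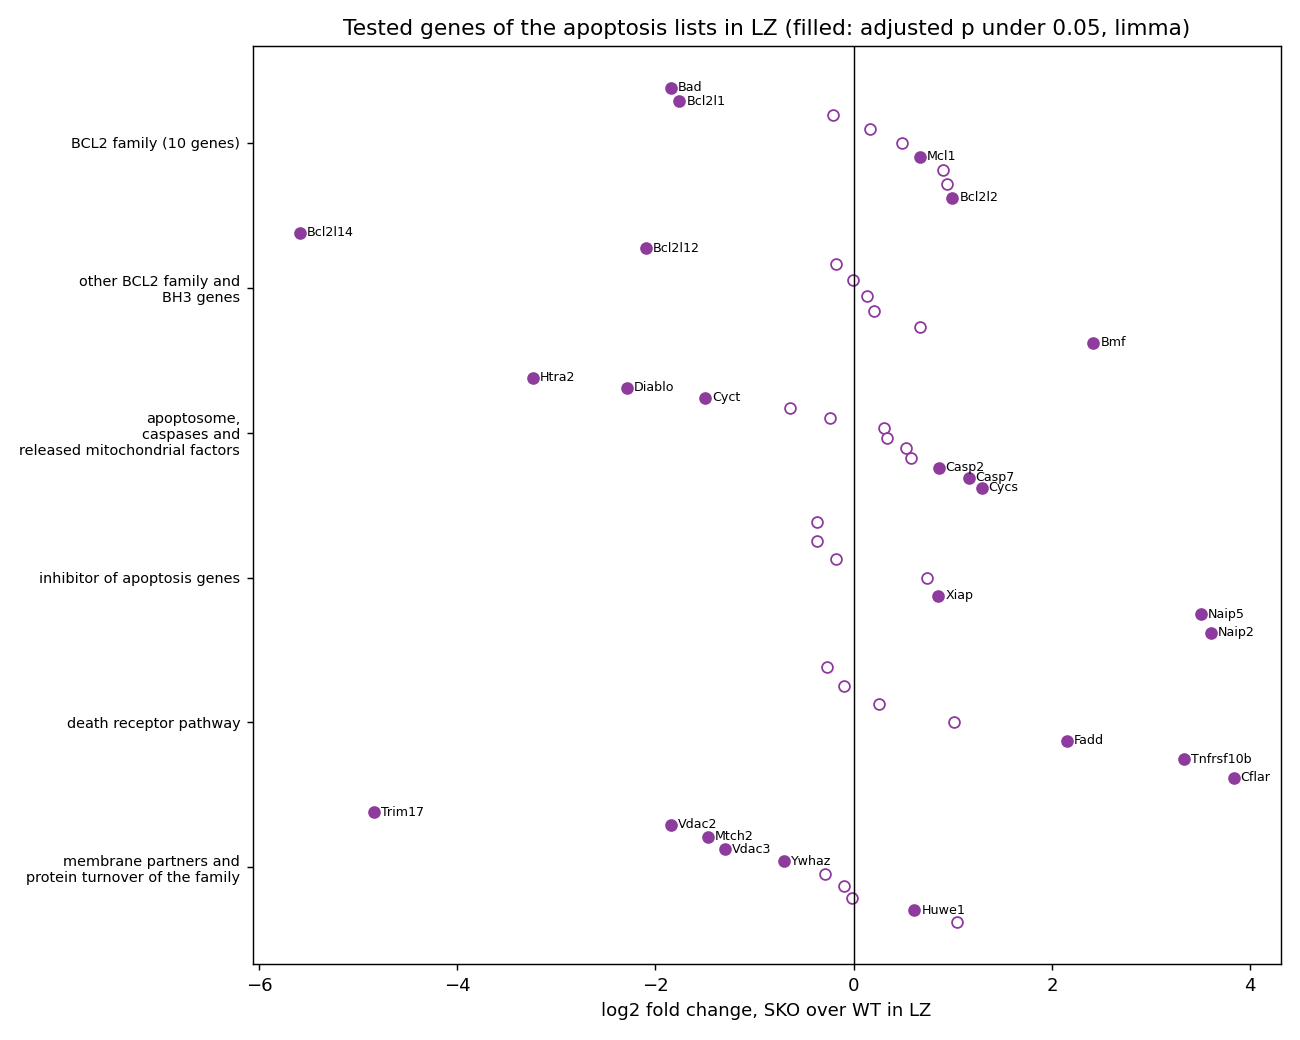
The log2 fold change of *Nat10*-SKO over WT in LZ (x axis) is plotted for every tested gene of the BCL2 family and the 5 apoptosis lists, filled and named where the adjusted p was under 0.05. The filled death receptor genes lie between 2.15 and 3.84, and the filled channel genes *Vdac2* and *Vdac3* at -1.84 and -1.30.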

How the data were processed

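RNA was measured in 17 libraries of FACS-sorted cells. The authors mapped reads (TopHat2 2.1.1 per the labels, which list both mm9 and mm10 as builds, and mm10 per the methods), counted those with a unique position by gene in HTSeq 0.11.2, and deposited signal values, in which 1 factor per library, from ERCC spike-ins and the number of input cells, scales the counts. Strand use and the annotation release in the counting are not given in the sources used here. Division by a library's smallest non-zero value gave whole numbers (within 0.02 of a whole number for 100% of values), taken as the reads, 5812380 to 13820953 a library. Library size was removed by median-of-ratios factors from the compared libraries, which assumes that most genes did not move. Between the genotypes in LZ, 4273 lower and 2716 higher of 13724 tested genes passed adjusted p under 0.05, which strains that assumption. limma 3.58.1 (R 4.3.3) tested log2(value + 10), with a trend, on every gene averaging 10 reads or more. The p-values were adjusted by Benjamini-Hochberg over all tested genes. A fold change on this scale understates that of low genes, and depth limits *Bcl2* and *Bak1* most. Printed values use size factors over all 17 libraries. The code was tested on simulated reads with known changes. edgeR 4.0.16 and DESeq2 1.42.0 on the recovered reads, other scalings, pseudocounts, filters and left-out libraries were alternatives. Positions, exon lengths and overlaps are from GENCODE M21 (GRCm38), and promoters from RefSeq (GRCm38.p6).

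Named were all 10 members, *Nat10*, up to 3 called genes per list and comparison (those that changed most, averaging 100 reads or more), and the 3 genes most alike to each member, of which 1 is not reported here. *Xiap*, *Gpr137*, *Ggnbp1*, *Bcl2l13* and the values of *Fadd* and *Tnfrsf10b* that were not called were added after their values were seen. The members and lists were chosen with earlier results of these data known. Rows naming no gene made up 0% of reads.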

Additional observations from a re-analysis of the deposited data

Results flagged for a closer look

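The genotype difference of 3 members changed between PreL and LZ in the interaction test of limma over all 17 libraries. For *Bcl2l1* the *Nat10*-SKO against WT difference moved by -1.91 from PreL to LZ on the log2 scale (adjusted p = 0.0151), and for *Bad* by -1.61 (adjusted p = 0.0115). For *Mcl1* it moved by 0.94 (adjusted p = 0.00124). These 3 of 9 tested members stand beside 23.1% of 13530 tested genes that passed in the lower and 15.1% in the higher direction. Without WT LZ replicate 3 the *Bcl2l1* and *Bad* values shrank to -1.55 and -1.25. Without rescaling the *Mcl1* value was 0.07 (limma, adjusted p = 0.839). *Bcl2l1* and *Bad* were lower in 3 of 3 *Nat10*-SKO LZ libraries than in either WT LZ library, and *Mcl1* was higher in 3 of 3. edgeR gave -1.77, -1.49 and 1.10 (adjusted p = 0.0348, 0.0213 and 0.000454) and DESeq2 gave -1.92, -1.64 and 0.95 (adjusted p = 0.0099, 0.00493 and 5.56e-05). The sum of late spermatocyte markers moved with the first 2 genes, and its part in them was not tested.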

How the results depend on the processing

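On ERCC-calibrated values without rescaling, the median of all tested genes shifted by 0.73 between the genotypes in PreL, by 1.86 from PreL to LZ in WT, by 1.01 from SPG to PreL and by 0.81 from PreL to LZ in *Nat10*-SKO. On that scale 3 members were called higher in *Nat10*-SKO PreL (0 otherwise), 9 from PreL to LZ in WT (2), 5 from SPG to PreL and 5 from PreL to LZ in *Nat10*-SKO (0 each), and 5 and 0 passed higher in the SPG to PreL and PreL to LZ interactions (0 and 1). Among values that passed adjusted p under 0.05 on at least 1 of the scales, signs turned there for *Mcl1* between genotypes in PreL (0.48), for *Bax* (1.47), *Bcl2l2* (1.65), *Mcl1* (1.04), *Bcl2l11* (1.12) and *Bid* (1.24) from PreL to LZ in WT, for *Bax* (0.89) and *Mcl1* (0.71) from SPG to PreL in *Nat10*-SKO, and for *Bax* (0.56), *Bcl2l1* (0.81) and *Bid* (0.55) from PreL to LZ in *Nat10*-SKO. Other values that passed on neither scale also turned. The scale itself carries these median shifts. The SPG count of 1 lower was 0 with no filter on low values and with edgeR. The LZ count of 0 higher was 1 with a pseudocount of 1 and 2 with edgeR, with DESeq2 and without the fold threshold. Without the fold threshold 1 member was lower from PreL to LZ in WT, and DESeq2 called 1 higher from PreL to LZ in *Nat10*-SKO.

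Leaving out 1 library gave 0 to 1 lower in SPG, 2 to 2 lower and 0 to 1 higher in LZ, 0 to 2 higher from PreL to LZ in WT, 0 to 1 higher from PreL to LZ in *Nat10*-SKO, and 0 to 2 lower in the PreL to LZ interaction, where the 0 came without WT LZ replicate 3. A lone remaining WT LZ library is assumed to vary like the others. With the replicate number as a block, 1 member was higher in LZ, and no other count moved. Same-numbered libraries correlated at -0.188 to 0.131, so the numbers were not taken as pairs. The block could not be fitted for LZ against PreL in WT. The cause of these changes was not tested. The LZ count of 2 lower held under all 11 other settings. Of the values for single members, 1312 kept direction and side of adjusted p 0.05, 35 newly passed and 21 no longer passed adjusted p under 0.05, 77 moved by more than the spread or changed sign without passing, and 11 turned.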
